A study of Arabidopsis thaliana with 18 samples.

Results

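The SAUR (SMALL AUXIN UP RNA) family of Arabidopsis thaliana comprised 80 genes here, of 27444 protein-coding and 37899 annotated nuclear genes. A gene was a member when its annotated product held the words SAUR-like auxin-responsive protein, which applied to 78 genes, or when one of its symbols was SAUR followed by a number, which added 2 genes. These 2 were SAUR79 (AT2G35290), annotated as an uncharacterized protein, and AT5G01830, which carries the name SAUR21 but encodes an ARM repeat protein. The name SAUR21 also belongs to AT5G18030, and AT1G29510 is listed as SAUR68 although its own annotation note assigns it the name SAUR67. All peaks that overlapped a SAUR gene or the 3 kb on either side of it were assigned to that gene.

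The peaks came from DAP-seq, in which a protein produced in vitro is incubated with a fragmented library of naked genomic DNA, recovered through its tag, and the bound fragments are sequenced. Proteins were made in wheat germ extract, and the DNA came from 2-week-old Col-0 seedlings. The MADS-domain transcription factor FRUITFULL (FUL) was used alone, with SUPPRESSOR OF OVEREXPRESSION OF CONSTANS 1 (FUL-SOC1), with AGAMOUS (FUL-AG), with SEPALLATA3 (FUL-SEP3), or with both AG and SEP3 (FUL-AG-SEP3), and an input library without protein served as the background. FUL was the only protein with the 3×FLAG tag, so fragments were recovered through FUL, alone or in a complex, and each of the 5 mixtures received 400 ng of the DNA library in 3 replicates. In the living plant FUL acts with SOC1 in the inflorescence meristem and with AG and SEP proteins in the fruit. The binding reactions contained neither chromatin nor plant cells.

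The deposited data were 1 peak list per mixture, called on the 3 replicates combined, and all 5 lists share the same input. They therefore held no value per replicate and no read depth, and no difference between lists could be tested. On the nuclear chromosomes the lists held 4809 peaks for FUL-SOC1, 4436 for FUL-AG-SEP3, 2814 for FUL-AG, 2572 for FUL and 1379 for FUL-SEP3. The median fold enrichment, the ratio of the pooled read pile-up to the local background at the summit of a peak, differed between lists, from 3.06 for FUL-SOC1 to 3.95 for FUL. Folds of different lists are therefore given side by side, together with the percentage of peaks of the same list that had a higher fold.

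SAUR genes are known as the largest family of early auxin response genes. Most are short, without introns, and rapidly transcribed after auxin treatment, and many lie in tandem arrays. Several SAUR proteins inhibit PP2C phosphatases of clade D, which keeps the plasma membrane proton pumps (AHA) phosphorylated and active, acidifies the cell wall and allows the cell to expand. MADS-domain proteins bind the CArG-box, a motif of 10 bp with CC, 6 bases that are A or T, and GG.

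SAUR10 (AT2G18010, chr2:7833782-7834653, plus strand), a known FUL target with a role in stem and branch growth, was 1 of 4 SAUR genes with a peak in all 5 lists. The probe used by the study for its gel-shift experiments (EMSA) lies upstream of it, at chr2:7832476-7832575, and is shown because the peaks of all lists were centred on it. Its sequence is given on the plus strand of TAIR10, with the CArG-box in capitals:
SAUR10 EMSA probe: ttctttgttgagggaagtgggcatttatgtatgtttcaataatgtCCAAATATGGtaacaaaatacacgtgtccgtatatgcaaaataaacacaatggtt

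The 100 bp held a single exact CArG-box, at chr2:7832521-7832530, whose first base lay 1261 bp upstream of the SAUR10 start. The summit of the FUL-SEP3 peak lay 0.5 bp from the centre of this box. The FUL-SOC1 summit and that of FUL-AG-SEP3 both lay 3.5 bp from it, that of FUL 4.5 bp and that of FUL-AG 10.5 bp. The box was inside the peak in every list, so the 5 calls at SAUR10 referred to one site.

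The SAUR10 site was among the highest peaks of the FUL-SOC1 list, with a fold of 5.10 that only 0.89% of the peaks in that list exceeded. In the FUL-AG-SEP3 list its fold was 5.31, with 2.11% of the peaks higher. In the FUL-SEP3 list its fold was 6.11 (5.04% higher) and in the FUL list 6.58 (12.0% higher). The lowest position was in the FUL-AG list, where the fold of 3.36 was exceeded by 41.2% of the peaks. Thus SAUR10 had the highest SAUR fold in both the FUL-SOC1 list and the FUL-AG-SEP3 list, but not in the others. The closest annotated gene start to these summits was that of a non-coding gene, AT2G07025, at 1109 to 1124 bp, against 1252 to 1267 bp for SAUR10.

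**Figure D1:**
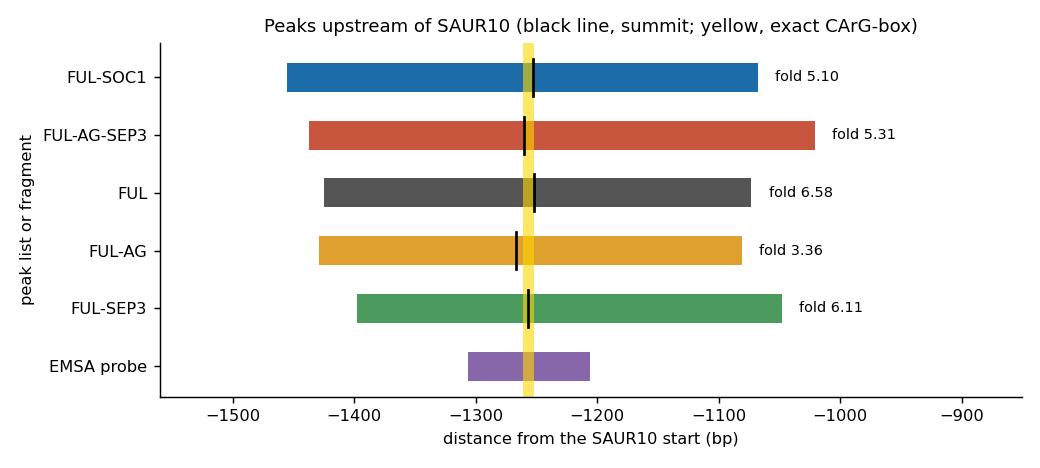
Peaks upstream of SAUR10. The x axis gives the distance from the SAUR10 start in bp, each bar is the extent of the peak in one list with its summit as a black line and its fold beside it, the lowest bar is the EMSA probe, and the yellow band is the exact CArG-box. All 5 peaks covered the probe, and their summits lay within 10.5 bp of the centre of the box.

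Besides SAUR10, the sites that the following results turn on are shown as the best CArG-box within 200 bp around the summit (capitals) with 10 bp on each side. They are given on the plus strand of TAIR10 and come from SAUR51 (chr1:28378947-28378976), SAUR30 (chr5:21773526-21773555), SAUR9 (chr4:17088079-17088108), SAUR35 (chr4:7346026-7346055), SAUR56 (chr1:28589214-28589243), SAUR58 (chr1:16183062-16183091), SAUR19 (chr5:5962287-5962316), SAUR6 and SAUR7 (chr2:9085855-9085884), and SAUR1 to SAUR4 (chr4:16594427-16594456):
SAUR51: aatactttttCCATAAATAGtagtatacat
SAUR30: attgatttagCCTTTAATGGtaagagatta
SAUR9: cttaaaatttCCTTTTTTGGctatcaagat
SAUR35: gttgtccgccCCAAAAATAGtatggactgg
SAUR56: cttttgtttaCCATTTTTGGggcacataaa
SAUR58: taaacgacaaCTATTTATGGcccagaaaat
SAUR19: ctatagttttCCTTTTTGGGcaatgtatac
SAUR6 and SAUR7: ttgctttataCTTAAAAAAGtatgagaact
SAUR1 to SAUR4: aagttcactaCTATAAATAGaaacttcttc

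The boxes of SAUR30, SAUR9 and SAUR56 were exact. Those of SAUR51, SAUR35, SAUR58 and SAUR19 had 1 mismatch to the motif, and the boxes shared by SAUR6 and SAUR7 and by SAUR1 to SAUR4 had 2.

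To determine how many SAUR genes had a peak of each protein mixture in their window, these genes were counted and set beside the same count over all protein-coding genes. The FUL-SOC1 list had a peak at 16 of the 80 SAUR genes (20.0%, 95% Wilson interval 12.7% to 30.05%), against 28.7% of all protein-coding genes. For FUL-AG-SEP3 there were 15 (18.75%, 11.7% to 28.7%), against 27.1%. FUL alone also had 16 (20.0%), against 17.0%. The FUL-AG list had 10 (12.5%, 6.93% to 21.5%) against 18.1%, and the FUL-SEP3 list 11 (13.75%, 7.85% to 22.97%) against 9.22%. Thus the share of SAUR genes lay below the share of all genes for FUL-SOC1, FUL-AG-SEP3 and FUL-AG, and above it for FUL and FUL-SEP3, but each interval included the share of all genes. The direction turned with the 1000 peaks of smallest p per list for FUL-SOC1, FUL and FUL-AG, by 0.58, -3.02 and 0.82 percentage points relative to all genes, and with assignment to the nearest start for FUL-AG-SEP3 (0.0016 points). With 1 kb on each side the FUL-SOC1 share was 7.5% (3.48% to 15.4%), an interval that lay below the 16.3% of all genes. The intervals cover counting over genes only, and they treat genes as independent although members of one array share peaks.

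In any of the lists, 30 SAUR genes had a peak (37.5%, 27.7% to 48.5%), against 43.9% of all protein-coding genes, and 50 had none (62.5%, against 56.1%). Peaks in all 5 lists were found at 4 genes (5.0%, against 4.2%), and peaks in 4 or 5 lists at 7 (8.75%, against 9.34%). Another 13 genes had a peak in exactly 1 list (16.25%, against 17.7%), and the remaining 10 in 2 or 3. These shares lay near those of all genes. As SAUR genes are short, with a median of 815 bp against 2078 bp, the share in any list was also taken over the 18891 protein-coding genes within the length range of the family, 396 to 2865 bp, where it was 40.7%. With 1 kb on each side the share in any list was 16.25% for SAUR genes and 26.6% for all protein-coding genes. Genes in the length range were not counted there.

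The peaks were then split by their position relative to the gene. Of the 16 SAUR genes with a FUL-SOC1 peak, 13 had one in the 3 kb upstream of the start (16.25% of the family, against 13.2% of all protein-coding genes), so that the family was above the share of all genes when only this region was counted, although the interval (9.75% to 25.8%) included it. The 13 genes had 13 upstream FUL-SOC1 sites, but not 1 each, because SAUR6, SAUR7 and SAUR12 shared sites. In contrast, FUL-SOC1 peaks overlapped the transcribed region of 2 SAUR genes (2.5%, 0.69% to 8.66%, against 9.29%, or 6.18% of the genes in the length range of the family). They overlapped the 3 kb downstream of 4 (5.0%, 1.96% to 12.16%, against 12.20%, or 12.11% in that length range). Both intervals lay below the share of all protein-coding genes but included that of genes in the length range. FUL-AG-SEP3 peaks were found upstream of 8 genes (10%, against 11.8%) and downstream of 7 (8.75%, against 11.7%). For FUL both numbers were 7 (8.75%, against 7.26% upstream and 6.92% downstream), for FUL-AG they were 4 (5.0%, against 7.24%) and 5 (6.25%, against 7.35%), and for FUL-SEP3 7 (8.75%, against 3.94%) and 3 (3.75%, against 3.69%). The upstream interval of FUL-SEP3 was 4.30% to 17.0%, but its 7 genes shared 5 sites. Over all lists, 18 SAUR genes had an upstream peak (22.5%, against 21.0%), 13 a downstream peak (16.25%, against 20.3%) and 5 a peak over the gene itself (6.25%, against 15.7%, or 11.1% of the genes in the length range of the family). The 95% Wilson interval of the last share ran from 2.70% to 13.8%.

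**Figure D2:**
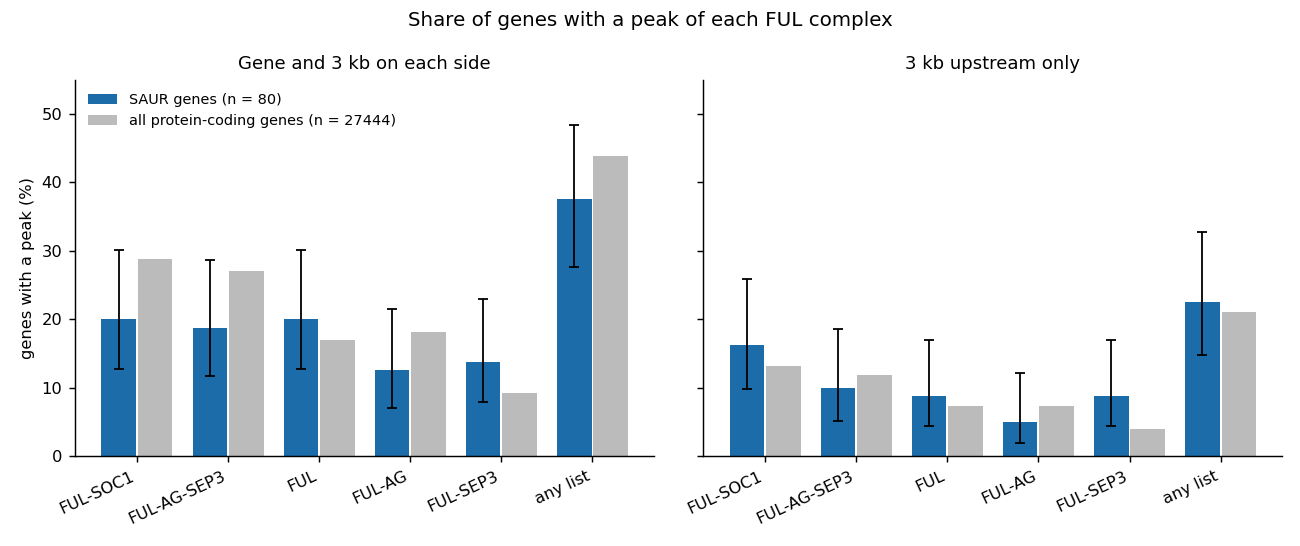
Share of genes with a peak in each list and in any list, in percent of the 80 SAUR genes (blue) or of the 27444 protein-coding genes (grey), for the gene with 3 kb on each side (left) and for the 3 kb upstream only (right). Error bars are 95% Wilson intervals over genes. For FUL-SOC1 the SAUR share was 20.0% against 28.7% on the left and 16.25% against 13.2% on the right.

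In total 64 peaks were assigned to SAUR genes, 20 from FUL-SOC1, 14 from FUL-AG-SEP3, 13 from FUL, 9 from FUL-AG and 8 from FUL-SEP3. Relative to the nearest SAUR start, 27 summits lay upstream, 11 within the gene and 26 downstream. The summits were intergenic in 43 cases and in a coding exon in 5. For 36 of the 64 peaks the nearest start of any annotated gene was that of a SAUR gene, and the other peaks lay closer to another gene. Overlapping peaks of the different lists formed 32 sites. Of these, 18 were called in a single list (56.25%, against 51.1% of the sites at all protein-coding genes) and 3 in all 5 lists (9.38%, against 6.42%).

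**Figure D3:**
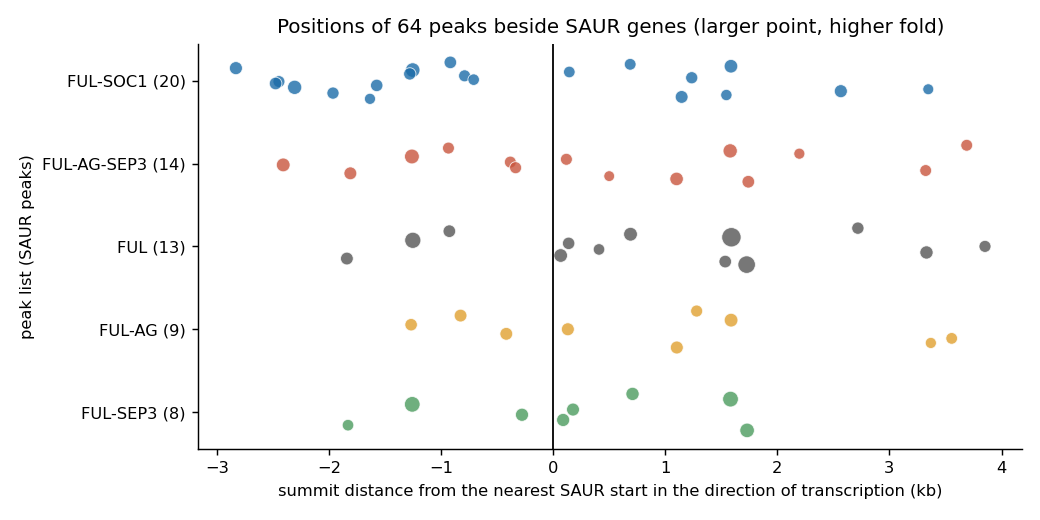
Summits of the 64 SAUR peaks by list. The x axis is the distance from the nearest SAUR start in kb, negative upstream, and the area of a point grows with the fold of the peak. Upstream summits numbered 12 of 20 for FUL-SOC1, 6 of 14 for FUL-AG-SEP3, 3 of 13 for FUL, 3 of 9 for FUL-AG and 3 of 8 for FUL-SEP3. The same share over all peaks was not counted, and the lists were not tested against each other.

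Most SAUR peaks were of middling height in their own list. The median percentage of higher peaks was 38.9% in FUL-SOC1, 58.6% in FUL-AG-SEP3, 60.8% in FUL, 29.6% in FUL-AG and 43.1% in FUL-SEP3. The top 10% of the respective list contained 11 of the 64 peaks (17.2%), but repeated calls of 1 site count separately here. The SAUR51 site entered in all 5 lists and the SAUR10 site in FUL-SOC1, FUL-AG-SEP3 and FUL-SEP3. The others were single peaks at SAUR35, SAUR30 and SAUR72. With the exception of 1 FUL-AG-SEP3 peak, downstream of SAUR44, all had a p below 0.0001 as given by the peak caller.

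**Figure D4:**
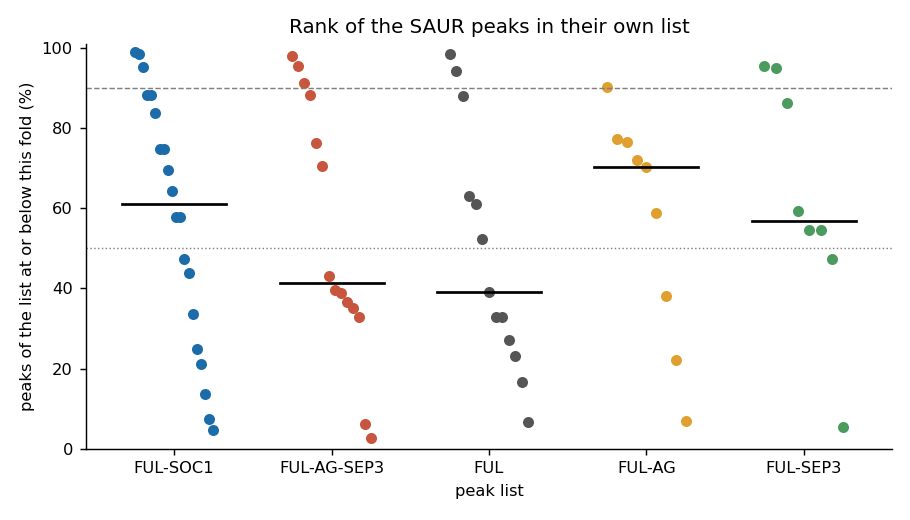
Position of each SAUR peak within its own list, as the percentage of peaks in that list at or below its fold (y axis). Points are peaks, the black lines are medians per list, the dotted line marks the middle of a list and the dashed line the start of its top 10%. Of the 64 peaks, 11 lay in the top 10%, among them repeated calls of the SAUR51 and SAUR10 sites.

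SAUR51 (AT1G75580) had the highest SAUR peak of the FUL list and was another gene with a peak in all 5 lists. The site lay on the 3' side of the gene, 1579 to 1590 bp from its start and 646 to 657 bp beyond its end. Its fold was 10.1 in the FUL list, where 1.54% of the peaks were higher, with a −log10 p of 64.7. In the FUL-SEP3 list the fold was 6.16 (4.46% higher), in FUL-AG-SEP3 4.83 (4.40%), in FUL-SOC1 4.27 (4.86%) and in FUL-AG 4.36 (9.73%). SAUR51 was thus in the top 10% of every list, which no other SAUR gene was. A second site, in an untranslated exon of SAUR51, was called by FUL (fold 4.41), FUL-SEP3 (3.98) and FUL-SOC1 (2.83).

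SAUR6 (AT2G21210) and SAUR7 share a site in the coding exon of SAUR6, 118 to 177 bp from its start, which was called in all 5 lists. The folds there were 3.75 in FUL-AG, 3.74 in FUL-SEP3, 3.32 in FUL, 2.98 in FUL-AG-SEP3 and 2.72 in FUL-SOC1. Between 22.8% and 75.1% of the peaks in the respective list were higher, so that this site, in contrast to those of SAUR10 and SAUR51, was common to all lists without being among the strong peaks of any.

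SAUR58 (AT1G43040), SAUR25 (AT4G13790) and SAUR19 (AT5G18010) had peaks in 4 lists, all but FUL-SEP3. At SAUR58 the peaks were 826 to 934 bp upstream, with folds from 2.95 (FUL-AG-SEP3) to 3.59 (FUL-AG). The SAUR25 peaks were on the 3' side, in introns of the neighbouring gene AT4G13780, with folds from 2.27 (FUL-SOC1) to 3.98 (FUL). FUL-SOC1 also had a second site there, with a fold of 3.82. SAUR19 belongs to a group whose proteins promote cell expansion in the hypocotyl. Its peaks formed 2 sites on the 3' side, of which the first, with folds of 4.19 in FUL-AG-SEP3, 3.72 in FUL-AG and 3.64 in FUL-SOC1, lay closest to the start of the tRNA gene AT5G18005. The second, with folds of 3.48 in FUL and 2.53 in FUL-SOC1, lay 218 to 228 bp from the start of VDD (AT5G18000), a B3-domain transcription factor gene needed in the female gametophyte. Thus the SAUR19 calls came from the border of its array.

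FUL-SOC1 peaks without a peak of any other list were found at 6 SAUR genes (7.5%, against 9.46% of all protein-coding genes). The highest was SAUR35 (AT4G12410), with a fold of 4.80 that 1.43% of the FUL-SOC1 peaks exceeded, 2306 bp upstream of the start. SAUR56 (AT1G76190) followed with a fold of 3.82 (11.7% higher), 2830 bp upstream, where the summit fell on an exact CArG-box. The remaining 4 were SAUR47 (3.45), SAUR59 (3.33), SAUR12 (3.25) and SAUR70 (2.38). All 6 had these peaks upstream of the start, between 790 and 2830 bp from it, but only at SAUR35 and SAUR59 was the SAUR start the nearest of any gene. At SAUR47 the summit was 5 bp from the start of DELTA-VPE, at SAUR12 the summits were 76 and 447 bp from the starts of non-coding genes and lay in the windows of neighbouring array members too, and at SAUR56 and SAUR70 other starts were 1096 and 1010 bp away.

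Conversely, 14 SAUR genes had peaks in other lists but none in FUL-SOC1 (17.5%, against 15.2%). SAUR30 (AT5G53590) had the highest of these, with a fold of 7.99 in the FUL list (5.75% higher), 5.07 in FUL-SEP3 (13.8%) and 3.50 in FUL-AG-SEP3 (29.5%). The site lay 1726 to 1741 bp from the SAUR30 start, on the 3' side, and 136 to 151 bp from the start of AT5G53592. The next were SAUR1 to SAUR4, whose windows share 1 site at the start of SAUR3 with folds of 4.32 in FUL and 3.89 in FUL-SEP3. SAUR9 (AT4G36110), which was singled out after its values were seen because its upstream box is exact, had folds of 3.66 in FUL-AG-SEP3, 3.59 in FUL and 2.70 in FUL-SEP3 at 1809 to 1840 bp upstream. SAUR31 had folds of 3.89 in FUL-SEP3 and 3.02 in FUL-AG-SEP3, and the other 7, SAUR39, SAUR41, SAUR45, SAUR52, SAUR53, SAUR54 and SAUR79, each had 1 peak, with folds between 2.35 and 3.22. The absence from a list says only that no peak passed the threshold of that list.

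The 3 genes left had peaks in FUL-SOC1 and other lists. SAUR72, from a subfamily that promotes hypocotyl elongation, had the third highest SAUR fold of the FUL-AG-SEP3 list, 4.40 (8.64% higher), and 2.97 in FUL-SOC1, about 2.4 kb upstream. SAUR42 was called by FUL-AG (3.61), FUL-AG-SEP3 (2.97) and FUL-SOC1 (2.66) within 1 kb upstream and by FUL-SOC1 again on the 3' side (3.15). SAUR44 was called by FUL-SOC1 (3.15) and FUL-AG-SEP3 (2.17) at 2 different sites, both with an exact box.

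**Figure D5:**
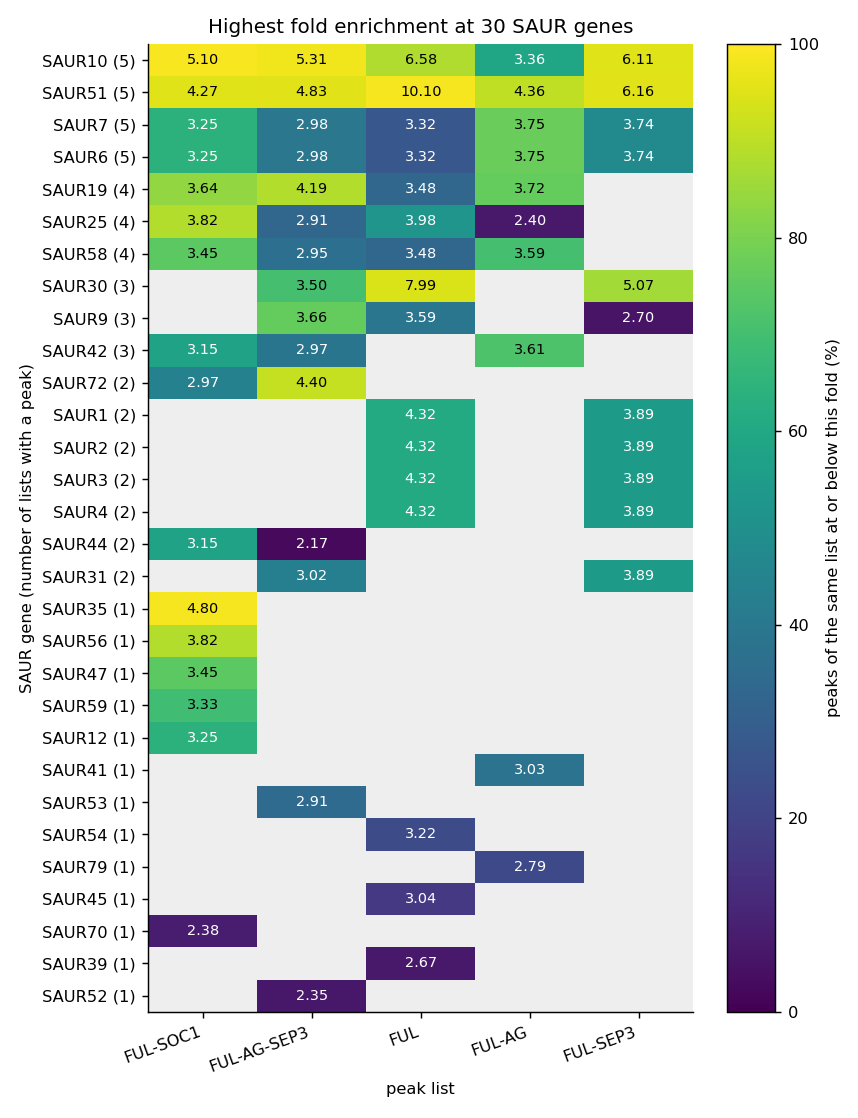
Highest fold per list (numbers in the cells) at the 30 SAUR genes with a peak. Rows are genes with the number of lists in brackets, columns are lists, grey cells have no peak, and the colour is the percentage of peaks of the same list at or below this fold. SAUR51 was in the top 10% of all 5 lists, and 6 genes had a FUL-SOC1 peak only.

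Peaks were less frequent in tandem arrays of SAUR genes than outside them, although this was not tested because array members share sites. With an array taken as at least 3 SAUR genes with starts at most 10 kb apart, 33 genes lay in 7 arrays. Of these, 8 genes (24.2%) had a peak, at 6 sites, against 22 of the 47 genes outside arrays (46.8%), at 26 sites, and 43.9% of all protein-coding genes. In 4 arrays no member had a peak. They comprised SAUR61 to SAUR65, the neighbouring group of SAUR66 to SAUR68, the array of SAUR26 to SAUR29 with SAUR73, and SAUR13 to SAUR16. Hence none of the 8 genes of the SAUR61 to SAUR68 group, which promotes the growth of hypocotyls and stamen filaments, had a peak in any list, and of SAUR19 to SAUR24 only SAUR19 did. The array of SAUR6, SAUR7 and SAUR12 was the exception, with peaks at all 3 genes, and in that of SAUR1 to SAUR5, SAUR49 and SAUR50 the peaks of 4 of the 7 members were those of 1 site.

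Tandem copies can be alike in sequence. Stretches of at least 100 bp with at least 95% identity elsewhere in the genome were present in the windows of 18 of the 33 array genes and of 8 of the 47 other genes, and over all 33 array genes they covered a median of 1.58% of the window. They were present at 6 of the 30 SAUR genes with a peak and 20 of the 50 without, and none of the 32 SAUR sites lay in such a stretch. Their part in the difference was not tested.

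Among the 25 genes outside arrays without a peak were SAUR32 and SAUR36, with known roles in the apical hook and in leaf senescence, SAUR40 and SAUR71, from the same subfamily as SAUR41 and SAUR72, and SAUR76 to SAUR78. SAUR8 and SAUR11 also had none.

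Exact CArG-boxes were present within 200 bp around the summit in 14 of the 64 SAUR peaks (21.9%, 95% Wilson interval 13.5% to 33.4%), against 16.0% of all nuclear peaks of the 5 lists. Several peaks cover the same site (the SAUR10 box counts 5 times among the 14), so the intervals over peaks treat repeated calls of one sequence as independent. With 1 mismatch allowed, a box was present in 44 (68.75%, 56.6% to 78.8%), against 70.7%. In comparison, 1.23% of the 200 bp windows of the nuclear genome held an exact box and 22.4% one with at most 1 mismatch. The box search covered both strands, since the motif is its own reverse complement. By list, a box with at most 1 mismatch was present in 12 of 20 FUL-SOC1 peaks (60%, against 69.0% of all peaks of the list), 10 of 14 FUL-AG-SEP3 peaks (71.4%, against 68.3%), 8 of 13 FUL peaks (61.5%, against 74.0%), 8 of 9 FUL-AG peaks (88.9%, against 71.2%) and 6 of 8 FUL-SEP3 peaks (75.0%, against 77.2%). Every interval included the share of all peaks of that list.

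Counted by site, the best box was exact at 6 of the 32 SAUR sites, had 1 mismatch at 15, 2 at 10 and 3 at 1. Of the 15 with 1 mismatch, 7 (46.7%) deviated at the inner C or G, as in the SAUR51, SAUR35 and SAUR58 boxes, against 45.8% of the boxes with 1 mismatch in all nuclear peaks. The outermost C or G deviated at 4 sites (26.7%, against 33.1%), and 4, among them that of SAUR19, had a G or C within the A/T core (26.7%, against 21.1%).

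To set the sequence beside the peaks, exact boxes were located upstream of all genes. Within 3 kb upstream, 13 SAUR genes had an exact CArG-box (16.25%, against 18.5% of all protein-coding genes), and 4 of these had any upstream peak (30.8%, against 30.2% for all genes with such a box). Of the 67 SAUR genes without one, 14 had an upstream peak (20.9%, against 18.9%). The 13 distinct boxes included 4 under a peak, those of SAUR10, SAUR9, SAUR56 and SAUR44, and 9 under none. The share under a peak was 30.8%, against 15.5% of the 4269 distinct exact boxes upstream of all protein-coding genes, but it rests on 4 boxes. Examples of boxes that no list covered are shown from SAUR77 (chr1:5938301-5938330), from the region that SAUR14 and SAUR15 share (chr4:18125576-18125605) and from SAUR54 (chr1:6850877-6850906), to be set beside the exact boxes with peaks above:
SAUR77: tttacagtttCCTATAATGGgtggttccga
SAUR14 and SAUR15: tgtagataacCCTTTATTGGtttcaaaagt
SAUR54: attgaggaagCCTTAATTGGctatggtact

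Finally, the other genes of the auxin pathway were counted in the same way, with at least 1 peak in any list for 43.9% of all protein-coding genes. Of the Aux/IAA repressors 13 of 29 had a peak, among them IAA34 in all 5 lists, and of the AUXIN RESPONSE FACTORS (ARF) 11 of 23, with ARF4 in all 5 lists and ETT in 4. The GH3 family, of which only some members conjugate auxin to amino acids, had 6 of 19, the TIR1/AFB auxin receptors 3 of 6, and the PIN auxin exporters 6 of 8. Among the genes that act downstream of SAUR proteins, 7 of the 11 AHA proton pump genes had a peak, with HA7 in all 5 lists. HA1, HA2, HA5 and AHA10 had none. Of the 9 clade D PP2C phosphatase genes 1 had a peak. By list, FUL-SOC1 had peaks at 6 AHA genes and 0 clade D PP2C genes (28.7% of all protein-coding genes), FUL-AG-SEP3 at 5 and 1 (27.1%), FUL at 5 and 1 (17.0%), FUL-AG at 3 and 1 (18.1%), and FUL-SEP3 at 4 and 0 (9.22%). These groups are small, none was set beside genes of its own length, and no group was tested against another.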

How the data were processed

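DAP-seq reads of 18 samples (5 protein mixtures and the input, 3 replicates each) were trimmed by the authors with Trim Galore and mapped to TAIR10 with HISAT2, and peaks were called with MACS2 against the input on combined replicates. The deposited lists give peak positions and summits, a fold enrichment (a ratio to the local background), a −log10 p and −log10 q, and a score that was not used. All deposited q-values were below 0.05. The lists hold no read numbers, so no depth is given beside the values.

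Peaks were assigned to the TAIR10.1 RefSeq gene models, whose nuclear chromosomes contained every nuclear peak, when they overlapped the gene or its 3 kb flanks by at least 1 bp. Mitochondrial peaks were left out of the gene, site and box counts. They stayed in the ranking of peaks by fold and by p within each list, where they numbered from 11 (FUL-SEP3) to 23 (FUL-AG). Shares have 95% Wilson intervals (SciPy 1.17.1). CArG-boxes were searched in 200 bp around summits, and near-identical copies with BLAST 2.17.0. The assignment and the box search were tested on simulated data. Named genes were SAUR10, those in 4 or 5 lists, the 3 with the highest folds per list, the 5 highest with FUL-SOC1 peaks only, the 5 highest without FUL-SOC1 peaks, the arrays, and the SAUR19 to SAUR24 and SAUR61 to SAUR68 groups. Other names were added after the values were seen. The rule for the other auxin genes also took 3 ARF genes as Aux/IAA and 3 genes of other products as ARF, which were left out of the counts given. Members and lists were chosen with earlier results of these data known. Alternatives were stricter thresholds, 1000 peaks per list, other windows, assignment by the nearest start, membership by product words, genes of SAUR length as background, and other box windows.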

Additional observations from a re-analysis of the deposited data

How the results depend on the processing

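No paired analysis was possible because each list was called on combined replicates, and for the same reason no replicate could be left out. With p or q below 0.0001, with summits required inside the window, and with members taken by product words, each count of SAUR genes stayed within 1.5 times the value reported and no difference from all protein-coding genes changed sign. The p threshold and the product words could change little. Of the 64 SAUR peaks, 63 had a p below 0.0001, and product words dropped 2 of the 80 genes. Narrower assignments lowered the counts. With 1 kb on each side, SAUR genes with a peak numbered 6 for FUL-SOC1, 9 for FUL-AG-SEP3, 8 for FUL, 6 for FUL-SEP3, 13 in any list and 2 in all 5 lists. With the 3 kb upstream only, there were 8 for FUL-AG-SEP3, 7 for FUL, 4 for FUL-AG, 7 for FUL-SEP3, 18 in any list and 2 in all 5. Giving each peak to its nearest gene start left 6 for FUL-SOC1 (7.5%, against 12.0%), 9 for FUL-AG-SEP3 (11.25%, against 11.248%) and 7 for FUL (8.75%, against 6.87%). It left 5 for FUL-AG (6.25%, against 7.12%), 5 for FUL-SEP3 (6.25%, against 3.75%), 15 in any list (18.75%, against 19.6%) and 2 in all 5. With the 1000 peaks of smallest p per list, there were 6 for FUL-SOC1 (7.5%, against 6.92%), 4 for FUL-AG-SEP3 (5.0%, against 6.77%) and 3 for FUL (3.75%, against 6.77%). There were 6 for FUL-AG (7.5%, against 6.68%), 17 in any list and 1 in all 5. The share of all genes with peaks in all 5 lists was not counted under these settings. The SAUR share minus the share of all protein-coding genes changed sign for FUL-SOC1 with the 3 kb upstream (3.08 percentage points, against -8.73) and with the 1000 peaks (0.58), for FUL with the 1000 peaks (-3.02, against 3.002), for FUL-AG with the 1000 peaks (0.82, against -5.56) and for FUL-AG-SEP3 with the nearest start (0.0016, against -8.32). The share in any list also passed that of all genes with the 1000 peaks (21.25% against 17.0%) and with the 3 kb upstream (22.5% against 21.0%). The cause was not tested. For FUL-SEP3 the SAUR share minus the share of all protein-coding genes stayed positive in all 10 settings, from 2.46 to 5.71 points. The settings are not independent, because all of them draw on the same 8 FUL-SEP3 peaks at 11 SAUR genes. SAUR1 to SAUR4 shared 1 of these peaks, and SAUR6 and SAUR7 shared another. When whole peaks were searched, 80% of the FUL-SOC1 SAUR peaks had a CArG-box with at most 1 mismatch, against 60% within 200 bp and 77.4% of all FUL-SOC1 peaks.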
